A study of Mus musculus with 4 samples.

Results

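The genes described here were 41 listed genes of the skeletal and cardiac sarcomere and of the muscle fibre around it. Each was represented by its brightest probe set among those with exactly 1 gene symbol. This gave 38 of the 41 genes, out of 12393 genes measured in all, and Mybpc1, Mybpc2 and Neb were not analysed here. The genes were grouped by their place in the fibre and by the fibre type in which each is best known.

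Mammary tumours were raised in female nulliparous FVB mice, either WT littermates or MMTV-PAX8PPARg mice, in which the mouse mammary tumour virus promoter drives a PAX8PPARg fusion gene. That promoter is best known for its activity in mammary epithelium. All mice, controls included, received 15 mg of the progestin MP (Depo-Provera) and 4 weekly doses of 1 mg of DMBA, a chemical carcinogen. On the day that followed the final DMBA dose a pellet with a 60-day release, either placebo or 2.5 mg RU486, was placed under the skin, and 60 days later a further pellet. RU486 blocks the receptors for progesterone and for glucocorticoids. WT and transgenic mice were matched for age, which the sources used here do not state. Each of the 4 groups (each genotype with placebo and with RU486) was measured on 1 Affymetrix array from RNA pooled in equal amounts from 5 mice. No group therefore had a replicate, and no difference between 2 arrays has a test or an error from mice.

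The sarcomere is the contractile unit of striated muscle. Myosin heavy and light chains form the thick filament, actin, tropomyosin and the troponins form the thin filament, and calcium binding to troponin C lets the filaments slide. Most of these proteins exist as separate gene products for fast and slow fibres, and the slow set is largely shared with the heart. Skeletal muscle lies beside the mammary fat pads in the mouse, and the mammary gland has contractile cells of its own, the myoepithelial cells, which use smooth muscle genes. In bulk tissue, fewer cells of a type and less RNA per cell cannot be told apart.

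The promoters of 4 members on which the results turn are shown here: 2 fast-fibre genes, a slow-fibre gene, and Tnnt2, which followed another pattern. Each window runs from 250 bases before to 50 bases after the annotated gene start (RefSeq, GRCm38.p6), on the strand of the gene. Capitals mark the E-box CAGCTG, the MCAT element CATTCC on either strand, TATAAA on the given strand, the MEF2 site and the CArG box. The windows lie at chr7:127211358-127211657 on the plus strand for Mylpf, at chr11:67237562-67237861 on the plus strand for Myh4, at chr14:54994577-54994876 on the minus strand for Myh7 and at chr1:135836084-135836383 on the plus strand for Tnnt2.
Mylpf: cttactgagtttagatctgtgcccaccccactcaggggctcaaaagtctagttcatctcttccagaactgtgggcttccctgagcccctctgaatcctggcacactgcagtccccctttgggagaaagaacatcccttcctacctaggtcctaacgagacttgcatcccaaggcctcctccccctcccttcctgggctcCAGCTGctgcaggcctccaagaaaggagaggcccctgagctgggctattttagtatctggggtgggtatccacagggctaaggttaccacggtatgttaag
Myh4: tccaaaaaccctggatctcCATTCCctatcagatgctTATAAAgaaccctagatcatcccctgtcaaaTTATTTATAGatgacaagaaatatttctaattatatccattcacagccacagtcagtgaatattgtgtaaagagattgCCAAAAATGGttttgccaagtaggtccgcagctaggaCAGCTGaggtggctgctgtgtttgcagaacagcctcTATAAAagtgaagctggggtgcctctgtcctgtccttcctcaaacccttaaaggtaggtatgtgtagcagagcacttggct
Myh7: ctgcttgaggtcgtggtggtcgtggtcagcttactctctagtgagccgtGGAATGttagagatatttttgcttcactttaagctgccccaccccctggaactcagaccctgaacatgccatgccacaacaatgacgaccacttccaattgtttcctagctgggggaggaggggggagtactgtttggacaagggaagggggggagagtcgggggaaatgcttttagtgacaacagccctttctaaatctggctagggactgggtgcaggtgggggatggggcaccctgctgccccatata
Tnnt2: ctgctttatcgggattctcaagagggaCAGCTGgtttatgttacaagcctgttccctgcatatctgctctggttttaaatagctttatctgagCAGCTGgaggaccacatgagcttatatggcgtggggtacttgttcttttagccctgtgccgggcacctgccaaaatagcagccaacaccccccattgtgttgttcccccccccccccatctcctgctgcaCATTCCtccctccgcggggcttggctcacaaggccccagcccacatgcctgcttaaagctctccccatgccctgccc

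The Mylpf window held CAGCTG at base -51 from the start. The Myh4 window held CAGCTG at base -67, CATTCC at -231, TATAAA at -213 and -31, a MEF2 site at -182 and a CArG box at -104. The Myh7 window held only CATTCC, on the reverse strand at base -201, and the Tnnt2 window held CAGCTG at -223 and -157 and CATTCC at -27. A window was found for 33 of the 41 genes. CAGCTG occurred in 15 of the 33 (45.5%) and in 16.1% of 27025 windows, and CATTCC in 11 of the 33 (33.3%) and in 14.7%. TATAAA occurred in 7 of the 33 (21.2%) and in 8.88% of all windows. The MEF2 site occurred in 5 of the 33 (15.2%) and in 3.29% of all windows, and the CArG box in 5 of the 33 (15.2%) and in 1.59%. These matches describe the letters in the windows, which may lie at the start of a less used transcript, and no binding was measured.

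All values are probe set signals (intensity, linear scale), and all differences are differences of log2(signal + 16) after each array was centred on its median. A difference between 2 arrays counts here as 2-fold when it reaches 1 on that scale. Counts of genes 2-fold apart, or not, in several comparisons at once were made for the 38 genes only, without a share over all genes. Orders of the arrays for a gene, and counts of genes highest on an array or higher on both arrays of a genotype, are taken from the centred values as well. The added 16 makes differences of dim probe sets smaller than the ratio of their signals. Signals are listed with WT before PAX8PPARg and, within each genotype, placebo before RU486 wherever 4 are given. A signal was taken as within the background range unless it was above all 27 probe sets for bacterial controls on the same array, the highest of which were 9.6, 18.5, 8.3 and 35.3. Of the 38 genes, 26 were above this range on all 4 arrays and 12 were within it on at least 1, and none was within it on all 4. The labelled tissue was checked with 14 measured luminal epithelial genes. Their summed signals were 44601, 6522, 38304 and 41910. The WT RU486 array was therefore low in the markers of the epithelium, and it was also high in the 12 macrophage genes, with a summed signal of 64992 against 18597 to 20749 on the other arrays.

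**Figure D1:**
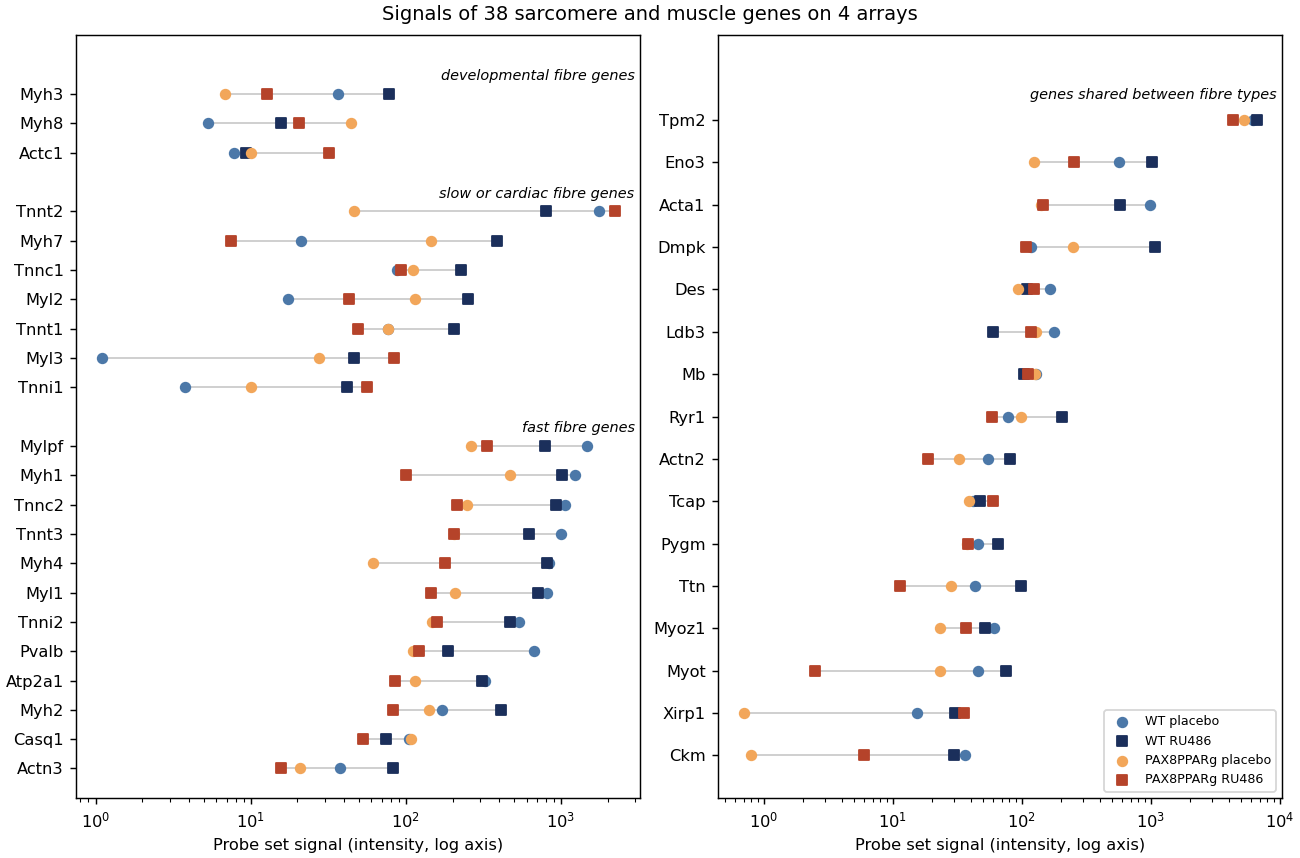
Signal of each of the 38 genes (horizontal log axis, probe set intensity) on the 4 arrays, with 1 point per array and no error because each group had 1 array. Among the fast-fibre genes both WT points lie to the right of both PAX8PPARg points for 11 of 12, whereas Tnnt2 is lowest on the PAX8PPARg placebo array (46.3) and highest on the PAX8PPARg RU486 array (2213).

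The fast-fibre genes were lower in PAX8PPARg than in WT tumours under both treatments. Of 12 measured, 9 were at least 2-fold lower in PAX8PPARg under placebo, where 5.49% of all genes were, and 10 under RU486, where 10.2% were. A total of 8 were lower under both. None was 2-fold higher under either, where 4.34% and 10.9% of all genes were. Their median difference was -2.02 under placebo and -1.71 under RU486, against -0.15 and 0.01 over all genes. Both WT values exceeded both PAX8PPARg values for 11 of the 12, the exception being Casq1, and for 20.6% of all genes. Their summed signal was 8271 on the WT placebo and 6399 on the WT RU486 array, against 2096 and 1692 on the PAX8PPARg placebo and RU486 arrays.

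In the thick filament, the fast myosin light chains showed the difference at high signals. Mylpf, the phosphorylatable fast regulatory light chain, had signals of 1477 and 789 in WT and of 264 and 333 in PAX8PPARg, with placebo and RU486 respectively. It was lower in PAX8PPARg by a log2 difference of -2.61 under placebo and -1.26 under RU486. Myl1, the fast alkali light chain, had signals of 818, 709.8, 207 and 146. Its genotype difference was -2.09 under placebo and -2.22 under RU486. For both light chains the genotypes were well apart and the placebo and RU486 arrays of a genotype lay within 2-fold.

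The fast myosin heavy chains Myh1 (type IIX), Myh2 (type IIA) and Myh4 (type IIB) are the motors of fast fibres. Myh4 had signals of 839, 809.9, 61.3 and 178, a genotype difference of -3.66 under placebo, the largest among the fast genes, and -2.15 under RU486. Myh1 had signals of 1229, 1013, 470.1 and 100.1, with genotype differences of -1.55 under placebo and -3.21 under RU486. Thus Myh4 was lowest on the PAX8PPARg placebo array and Myh1 on the PAX8PPARg RU486 array, and within PAX8PPARg the RU486 difference was 1.46 for Myh4 and -1.93 for Myh1. The brightest Myh1 probe set is of the kind that may cross-hybridise. A second Myh1 probe set gave 687, 624, 283 and 69.0, the same order, while another was dim, with signals of 10.6 to 20.0. Myh2 had signals of 172, 411, 142 and 83.1 and differed between genotypes by -0.44 under placebo and -2.17 under RU486. The adult and developmental heavy chain genes are close in sequence, so signal may be shared among their probe sets.

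The fast troponins behaved alike. Troponin C, which binds calcium, is encoded in fast fibres by Tnnc2, with signals of 1064.5, 931, 247 and 212 and genotype differences of -2.23 under placebo and -2.11 under RU486. Tnnt3, fast troponin T, which ties the troponin complex to tropomyosin, had signals of 1007, 619, 203 and 204 and differences of -2.41 and -1.58. Tnni2, the fast inhibitory subunit, had signals of 533, 466, 146 and 159.6 and differences of -1.95 and -1.52. For each of the 3 genes both WT arrays stood above both PAX8PPARg arrays, and the RU486 differences were within 2-fold in both genotypes. A second Tnni2 probe set gave smaller differences of the same sign, -1.62 under placebo and -0.75 under RU486.

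Calcium handling genes of fast fibres were less uniform. Atp2a1, the calcium pump of the fast sarcoplasmic reticulum, had signals of 325, 308, 115 and 85.3, with genotype differences of -1.57 under placebo and -1.73 under RU486. Pvalb, parvalbumin, a soluble calcium buffer of fast fibres, had signals of 665, 185.5, 111 and 122. Only the WT placebo array was high for Pvalb, so its genotype difference was -2.61 under placebo and -0.60 under RU486. Casq1, the fast calsequestrin that stores calcium in the reticulum, had signals of 104, 74.1, 108.5 and 53.3 and stayed within 2-fold in all 4 comparisons. Ryr1, the calcium release channel of skeletal muscle, had signals of 77.7, 205, 97.8 and 58.7. It was higher on the WT RU486 array than on any other array, by 1.24 against WT placebo, and its genotype difference was 0.09 under placebo and -1.62 under RU486.

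Genes used by all skeletal fibres included 3 that followed the fast genes under both treatments. Acta1, the skeletal alpha-actin of the thin filament, had signals of 987, 574, 139.5 and 147, with genotype differences of -2.88 under placebo and -1.92 under RU486. Eno3, the muscle enolase of glycolysis, had signals of 566, 1023, 125 and 255. Its genotype differences were -2.24 and -2.00, and it was also higher with RU486 in both genotypes, by 0.84 in WT and 1.08 in PAX8PPARg. Ckm, the muscle creatine kinase that buffers ATP, had signals of 36.2, 29.5, 0.8 and 6.0, both PAX8PPARg values being within the background range, and differences of -1.83 and -1.11. Those 3 genes, the 8 fast genes and the developmental heavy chain Myh3 made up the 12 of 38 genes that were at least 2-fold lower in PAX8PPARg under both treatments.

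**Figure D2:**
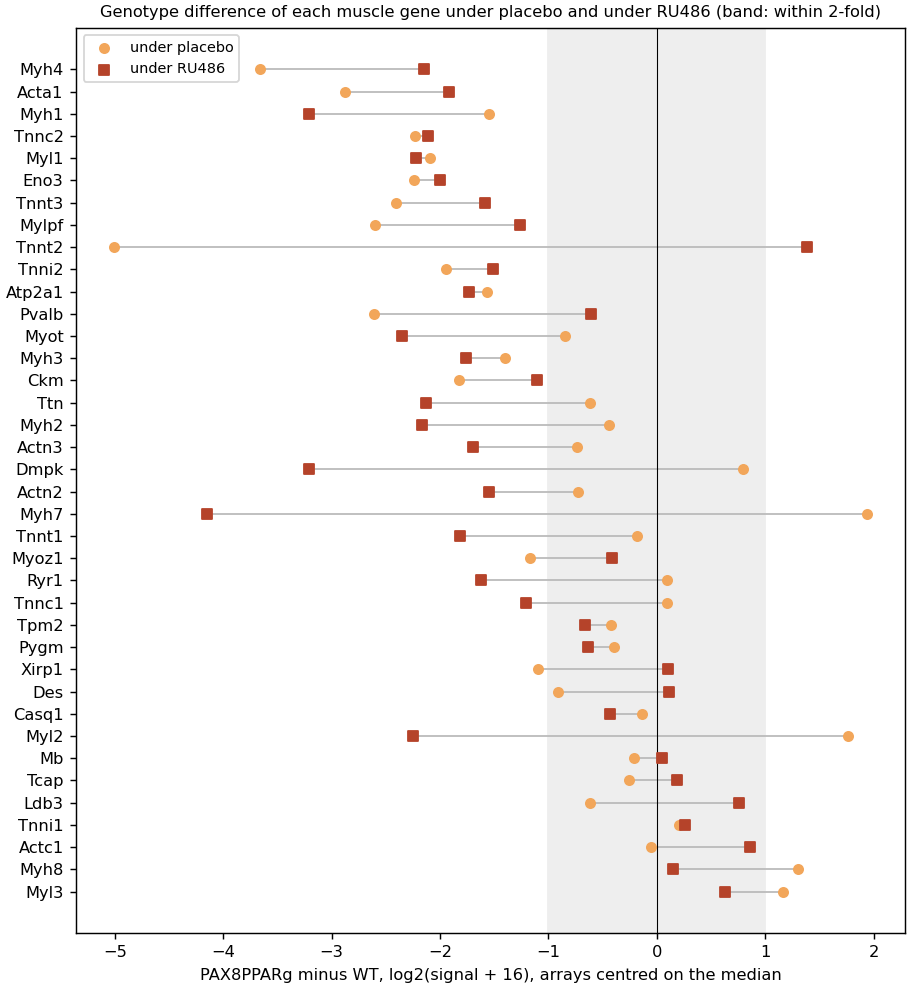
Genotype difference of each of the 38 genes (horizontal axis, PAX8PPARg minus WT on the centred log2 scale) under placebo (circles) and under RU486 (squares), sorted by the mean of both, with a grey band for differences within 2-fold and no error because each group had 1 array. A total of 16 genes lie at -1 or below under placebo and 23 under RU486, and Tnnt2 spans from -5.01 under placebo to 1.39 under RU486.

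Over all 38 genes, 16 were at least 2-fold lower in PAX8PPARg under placebo, where 5.49% of all genes were, and 4 were at least 2-fold higher, where 4.34% were. The 4 were Myh7, Myh8, Myl2 and Myl3. Under RU486, 23 of 38 were at least 2-fold lower, where 10.2% of all genes were, and only Tnnt2 was at least 2-fold higher, where 10.9% were. The median over the 38 genes was -0.73 under placebo and -1.53 under RU486. After centring, both WT values exceeded both PAX8PPARg values for 22 of the 38 genes and for 20.6% of all genes. The 2 genotype comparisons share no array. They differed in which genes took part, since 11 genes were at least 2-fold lower under RU486 alone and 4 under placebo alone. The 11 were Actn2, Actn3, Ttn, Myot, Ryr1, Dmpk, Myh2 and the slow genes Myh7, Myl2, Tnnt1 and Tnnc1, and the 4 were Tnnt2, Pvalb, Myoz1 and Xirp1.

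By place in the fibre, 5 of 10 measured thin filament genes and 5 of 10 thick filament genes were at least 2-fold lower in PAX8PPARg under placebo. Under RU486 6 and 8 of them were. Over all genes the share lower was 5.49% under placebo and 10.2% under RU486, for this and the next counts. Of the 9 genes of the Z-disc, titin and the intermediate filament, 2 were lower under placebo and 4 under RU486. Of 4 calcium handling genes 2 were lower in each comparison, and of 5 energy and kinase genes 2 were lower under placebo and 3 under RU486. At least 2-fold higher under placebo were 4 of the 10 thick filament genes and none of the other groups, where 4.34% of all genes were. Under RU486 only 1 thin filament gene was higher, where 10.9% of all genes were.

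The slow-fibre genes had another order. All 6 slow-fibre genes measured apart from Tnnt2 were at least 2-fold higher with RU486 in WT tumours, with differences of 1.23 to 3.44 and a median of 1.71, where 7.46% of all genes were higher. Within PAX8PPARg, 2 of the 6 were higher with RU486 and 2 lower, with a median of -0.23. Their summed signals were 207, 1158, 485 and 333, so the WT RU486 array was the highest and the WT placebo array the lowest. None of the 6 lay at or above the median level of all genes, and the added 16 weighs on their differences. With 64 added in its place, 2 of the 6 stayed at least 2-fold higher.

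Myh7, the slow and cardiac beta-myosin heavy chain, had signals of 21.0, 386, 146 and 7.5, the last within the background range. It was higher with RU486 in WT by 3.44 and lower with RU486 in PAX8PPARg by -2.65. Myl2, the slow regulatory light chain, had signals of 17.4, 253, 114 and 42.8, with differences of 3.01 in WT and -1.01 in PAX8PPARg. For both genes the WT RU486 array was the highest and the PAX8PPARg placebo array the second highest, so the genotype difference turned from positive under placebo (1.94 for Myh7 and 1.77 for Myl2) to negative under RU486 (-4.16 and -2.25).

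Tnnt1 and Tnnc1, the slow troponins T and C, were high on the WT RU486 array alone. Tnnt1 had signals of 76.2, 204, 76.8 and 49.1, with an RU486 difference of 1.26 in WT and -0.38 in PAX8PPARg. Tnnc1 had signals of 87.6, 226, 110.4 and 93.2, with differences of 1.23 and -0.08. The slow inhibitory troponin Tnni1 and the light chain Myl3 were instead higher with RU486 in both genotypes, the only 2 of the 38 genes to be so by 2-fold. Tnni1 had signals of 3.8, 41.9, 10.1 and 56.1, with differences of 1.55 in WT and 1.60 in PAX8PPARg. Myl3 had signals of 1.1, 46.2, 27.7 and 84.2, with differences of 1.86 and 1.33. Both were within the background range on the WT placebo array, and 2 other Myl3 probe sets gave -1.74 and 0.67 for RU486 in PAX8PPARg, so that difference rests on 1 probe set of the kind that may cross-hybridise.

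Over all 38 genes, 9 were at least 2-fold higher with RU486 in WT, where 7.46% of all genes were, and 3 were lower, where 8.88% were. The 9 were the 6 slow-fibre genes with Myh2, Ryr1 and Dmpk, and the 3 were Tnnt2, Pvalb and Ldb3. In PAX8PPARg, 7 were higher, where 10.6% of all genes were, and 3 were lower, where 7.08% were. The 7 were Tnnt2, Xirp1, Tnni1, Myh4, Myl3, Eno3 and Actc1, and the 3 were Myh1, Myh7 and Myl2. The median was 0.12 in WT and -0.00 in PAX8PPARg, against 0.01 and 0.13 over all genes. For 21 of the 38 the RU486 difference was within 2-fold in both genotypes, 8 of them fast-fibre genes. Dmpk, the myotonic dystrophy protein kinase, had the largest RU486 difference in WT among the genes outside the slow set. Its signals were 118.5, 1078, 249.6 and 107, its RU486 differences 3.02 in WT and -0.97 in PAX8PPARg, and its genotype difference under RU486 -3.21. A dimmer second Dmpk probe set, with signals of 2.8, 33.6, 9.5 and 3.0, was likewise highest on the WT RU486 array, and its differences of 1.40 for RU486 in WT and -1.44 between genotypes under RU486 had the same signs.

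**Figure D3:**
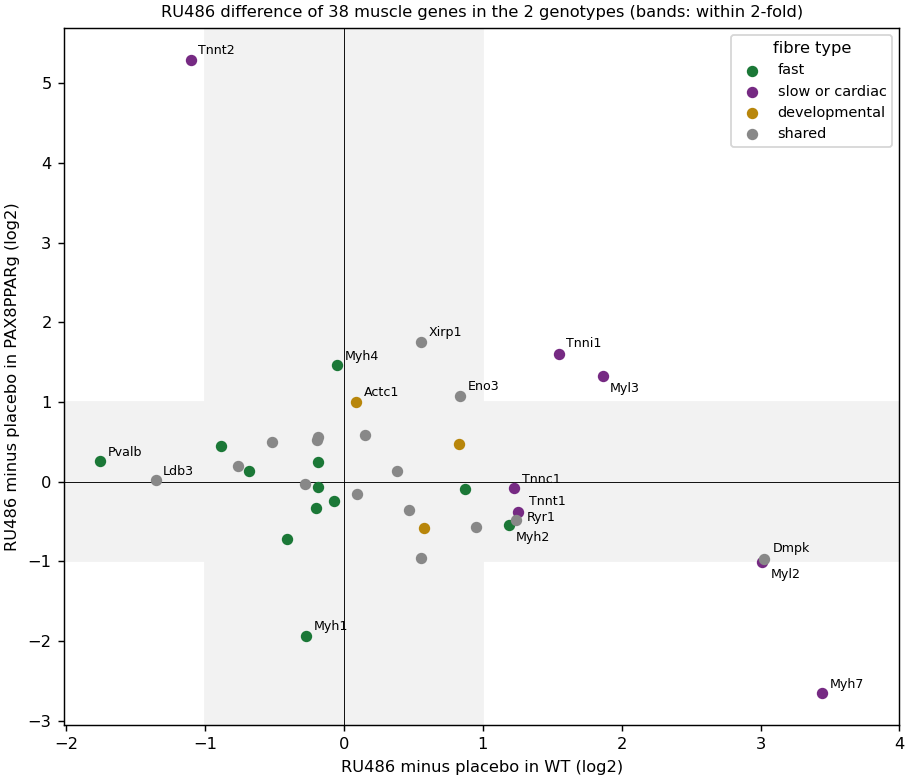
RU486 minus placebo for each of the 38 genes in WT (horizontal axis) and in PAX8PPARg (vertical axis) on the centred log2 scale, coloured by fibre type, with grey bands for differences within 2-fold and no error because each group had 1 array. The 6 slow-fibre genes other than Tnnt2 lie at 1.23 or more on the horizontal axis, and Tnnt2 lies at -1.10 and 5.29.

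Tnnt2, cardiac troponin T, is the thin filament subunit of the heart and of embryonic skeletal muscle. Its signals were 1744 with placebo and 803 with RU486 in WT, and 46.3 with placebo and 2213 with RU486 in PAX8PPARg. It was therefore high on 3 arrays and low on 1, and that 1 was the PAX8PPARg placebo array. The genotype difference was -5.01 under placebo and 1.39 under RU486, and the RU486 difference was -1.10 in WT and 5.29 in PAX8PPARg. A second Tnnt2 probe set had signals of 1627, 825, 59.5 and 2179 and gave the same signs, with differences of -4.63 and 1.33 between genotypes and -0.96 and 5.00 for RU486. The brightest of the pair is of the kind that may cross-hybridise.

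The contrast with the skeletal genes was in the PAX8PPARg RU486 array. Tnnt2 was highest there, while none of the 12 fast-fibre genes was. After centring, 10 of those were highest on the WT placebo and 2 on the WT RU486 array, although the Casq1 signal before centring was highest on the PAX8PPARg placebo array. Of all 38 genes, 16 had their highest centred value on the WT placebo array, where 23.0% of all genes were, and 15 on the WT RU486 array, where 31.7% were. Only Myh8 had its highest centred value on the PAX8PPARg placebo array, where 16.1% of all genes did (without centring Casq1 did too), and 6 genes were highest on the PAX8PPARg RU486 array, where 29.2% were. The 6 were Tnnt2, Tnni1, Myl3, Tcap, Xirp1 and Actc1. Of these only Actc1 did not exceed the bacterial controls there, and Xirp1 barely did, at 35.5 against 35.3. Leaving Tnnt2 out, 15 of 37 genes were at least 2-fold lower in PAX8PPARg under placebo and 23 of 37 under RU486, and none was 2-fold higher under RU486.

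Likeness to Tnnt2 was measured as the Euclidean distance between centred log2 values over the 4 arrays, each less its gene's mean, among the 6197 genes at or above the median level. The nearest genes were Inhba (distance 1.20), the beta-A subunit of activin and inhibin, Hbegf (1.60), a ligand of the EGF receptor, the matrix metalloproteinases Mmp10 (1.78) and Mmp9 (2.04), and Tnc (1.92), the matrix protein tenascin C. Inhba had signals of 2336, 1185, 120.5 and 1518, and Hbegf 734, 445, 45.2 and 453. As with Tnnt2, both were low on the PAX8PPARg placebo array alone. The nearest of the other 37 genes was Myh4, at a distance of 3.01, and the farthest was Myh7, at 6.51. On the GRCm38.p6 annotation Tnnt2 lies beside the slow troponin gene Tnni1 with 1 protein-coding gene, Lad1, between them. Tnni1 differed between genotypes by 0.21 under placebo, where its WT signal was within the background range, and by 0.26 under RU486. Its RU486 difference had the sign of Tnnt2 in PAX8PPARg (1.60) and the opposite sign in WT (1.55). Tnni2 and Tnnt3 have the same layout, with Lsp1 between them, and both were lower in PAX8PPARg. The heavy chain genes Myh3, Myh2, Myh1, Myh4 and Myh8 follow each other with no protein-coding gene between, and their patterns were not uniform.

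The developmental fibre genes were dim. Myh3, the embryonic heavy chain, had signals of 36.8, 77.7, 6.8 and 12.8, with genotype differences of -1.40 under placebo and -1.76 under RU486, and both PAX8PPARg values were within the background range. Myh8, the perinatal heavy chain, had signals of 5.3, 15.7, 44.0 and 20.6, of which only the PAX8PPARg placebo value was above the background range. Actc1, cardiac alpha-actin, had signals of 7.8, 9.3, 10.1 and 31.8 and exceeded that range in PAX8PPARg with placebo only, by a small margin. In WT tumours both genes stayed within the background range. They gave a 2-fold difference in 1 comparison each, 1.30 for Myh8 between genotypes under placebo and 1.01 for Actc1 with RU486 in PAX8PPARg.

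The Z-disc anchors thin filaments at the sarcomere's ends, and several of its genes were lower in PAX8PPARg under RU486. Actn2, the alpha-actinin that cross-links actin there, had signals of 54.7, 81.5, 32.6 and 18.7, with genotype differences of -0.73 under placebo and -1.55 under RU486. Its fast-fibre paralogue Actn3 had signals of 37.8, 82.1, 20.8 and 15.6 and differences of -0.74 and -1.69. Ttn, titin, the spring from Z-disc to M-line, had signals of 43.5, 98.9, 28.4 and 11.3 and differences of -0.61 and -2.13, and a second probe set gave -3.15 under RU486. Myot, myotilin, a Z-disc scaffold, had signals of 46.0, 75.0, 23.2 and 2.5 and differences of -0.85 and -2.36. All 4 genes had their highest signal on the WT RU486 array and their lowest on the PAX8PPARg RU486 array, where all 4 were within the background range. The bacterial controls were also highest on that array, at 35.3, so their exact level there is not known.

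The other genes of this zone varied less or in other ways. Myoz1, a calcineurin-binding Z-disc protein, had signals of 60.9, 51.5, 23.0 and 36.6 and a genotype difference of -1.17 under placebo and -0.42 under RU486. Xirp1, an actin-binding repeat protein, had signals of 15.4, 30.1, 0.7 and 35.5 and an RU486 difference of 1.76 in PAX8PPARg. Its PAX8PPARg placebo value was within the background range, and its PAX8PPARg RU486 value barely above the highest control there, 35.3. Ldb3, the PDZ and LIM protein ZASP, had signals of 178, 59.9, 128 and 118 and an RU486 difference of -1.35 in WT, which its other 2 probe sets gave as 0.00 and -2.35. Its genotype difference was -0.62 under placebo and 0.76 under RU486. The probe set at 0.00 gave -1.46 and -1.29 for these, and the one at -2.35 gave -0.36 and 1.54, so the Ldb3 probe sets disagreed. Des, desmin, the muscle intermediate filament, had signals of 164, 109, 92.8 and 125, and Tcap, telethonin, 41.4, 47.6, 38.9 and 59.3. Des and Tcap were within 2-fold in all 4 comparisons.

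The brightest probe sets of the remaining 3 genes were within 2-fold in all 4 comparisons. Tpm2, beta-tropomyosin, which smooth muscle and myoepithelium also use, had signals of 6197, 6594, 5273 and 4333, with a genotype difference of -0.42 under placebo and -0.66 under RU486. Of its 3 other probe sets 1, with signals of 103.5, 258, 172.9 and 86.6, passed 2-fold, with 1.20 for RU486 in WT and -1.47 between genotypes under RU486. Mb, myoglobin, the oxygen store of oxidative fibres, had signals of 129, 103, 127 and 112, and its differences lay between -0.28 and 0.04. A dimmer Mb probe set had signals of 2.0, 15.0, 9.4 and 42.5 and differed by 1.34 for RU486 in PAX8PPARg. Pygm, the muscle glycogen phosphorylase, had signals of 46.0, 64.7, 37.7 and 38.0, and its differences lay between -0.64 and 0.38.

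Other muscle genes were read from lists apart from the 38. Between genotypes, 5.49% of all genes were at least 2-fold lower and 4.34% higher in PAX8PPARg under placebo, and 10.2% and 10.9% under RU486, and the counts of these lists stand against those shares. Of 30 other sarcomere genes measured, 4 were at least 2-fold lower in PAX8PPARg under placebo and 8 under RU486, and 1 and 4 were higher, the last 2 counts near the shares over all genes, with medians of -0.35 and -0.49. The muscle LIM protein gene Csrp3 had signals of 73.2, 178.5, 15.5 and 44.5 and was lower in PAX8PPARg by -1.69 under placebo and -1.74 under RU486. Ankrd1, a stretch-responsive ankyrin repeat protein of titin's I-band, had signals of 190.9, 263.5, 13.1 and 435.5, so that like Tnnt2 it was low on the PAX8PPARg placebo array alone. Of 27 genes of excitation-contraction coupling and the dystrophin complex, 2 were lower under placebo and 7 under RU486, and 2 were higher in each, so that apart from the 7 these counts were near the shares over all genes. Trdn, triadin of the calcium release complex, had signals of 113, 117, 30.6 and 51.2, with differences of -1.66 and -1.04. Of 24 muscle energy genes, 5 were lower under placebo and 4 under RU486, and 2 and 5 were higher. Among them Ak1, the muscle adenylate kinase, had signals of 387, 697, 107 and 214, and Pgam2, the muscle phosphoglycerate mutase, had 212, 189.8, 56.0 and 39.7. Both genes had both WT signals above both PAX8PPARg signals, while others of the list ran the other way. Cox8b, with signals of 81.9, 81, 532 and 48.8, was higher in PAX8PPARg by 2.30 under placebo. Ppargc1a, with 76.7, 27.7, 158 and 503, was higher by 3.51 under RU486. In each genotype comparison 12 of the 24 genes lay above 0 and 12 below, with medians of -0.005 under placebo and -4.8e-05 under RU486.

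Of 23 measured myogenic regulators and satellite cell genes, 2 of which are also among the 38 genes, 5 were at least 2-fold higher with RU486 in WT, where 7.46% of all genes were, and none was lower, where 8.88% were, with a median of 0.52. In PAX8PPARg 6 were higher, where 10.6% of all genes were, and 1 was lower, where 7.08% were. Mef2c, a transcription factor of muscle and other lineages, had signals of 359.7, 1187.5, 781.5 and 365, highest on the WT RU486 array. Ncam1, a cell adhesion molecule of nerve and of regenerating fibres, had signals of 739.9, 964, 133 and 219, lower in PAX8PPARg by -2.53 under placebo and -2.12 under RU486. Eya1 ran the other way, with signals of 0.6, 53.8, 48.9 and 254.5 and genotype differences of 1.78 and 1.90. Under placebo 2 of the 23 were at least 2-fold higher in PAX8PPARg and 2 lower, where 4.34% and 5.49% of all genes were. Under RU486 3 were higher and 6 lower, where 10.9% and 10.2% were. Myod1, the myogenic master regulator, had signals of 1.2, 4.8, 0.9 and 3.8, within the background range on every array. Of 11 neuromuscular junction genes, none was at least 2-fold higher or lower in PAX8PPARg under placebo. Under RU486 3 were higher, where 10.9% of all genes were, and the median was 0.36. In that comparison 7 of the 11 genes were within the background range on both arrays. Only 1 was lower, near the share of 10.2% over all genes. That gene was Chrna1, an acetylcholine receptor subunit, with signals of 23.3, 61.7, 20.2 and 2.8, the last within the background range. Among the 3 higher, only Agrn exceeded the background range on either array, with signals of 1632, 413.6, 1478 and 1867 and a difference of 2.07.

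Markers of heart were low. The 21 measured heart genes summed to 472, 899, 454 and 689, and 8, 9, 9 and 13 of them were within the background range on these arrays. None was at 0. The atrial peptide gene Nppa and the cardiac heavy chain gene Myh6 were within the background range on every array, with signals of 0.8 to 3.0 and 0.1 to 5.1. With RU486 in PAX8PPARg, 6 of the 21 were at least 2-fold higher, where 10.6% of all genes were. There 0 were lower, where 7.08% were, and the median was 0.51. Of the 21, 9 were within the background range on both arrays of this pair, and the largest difference, 1.41, belonged to such a gene. The highest bacterial control was 8.3 on the placebo and 35.3 on the RU486 array of this pair. In WT 2 were higher with RU486, where 7.46% of all genes were, and 0 lower, where 8.88% were. Gata6, a transcription factor of heart and other tissues, had signals of 28.9, 195.7, 37.1 and 105.2. The part of heart tissue in the Tnnt2 values was not tested.

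Genes of other cell types moved with these results, and their part in them was not tested. Beside the slow-fibre result, the WT RU486 array was lowest in the 14 luminal genes. Of 13 nerve and Schwann cell genes, 4 were at least 2-fold higher and 2 lower with RU486 in WT, where 7.46% and 8.88% of all genes were. The 13 genes summed to 9593 on the WT RU486 array against 2943 to 4733 on the others. That sum rested on Nefl, with signals of 8.0, 5589, 5.5 and 46.8, since without it the sums were 4115, 4004, 4727.5 and 2896. The 19 smooth muscle and myoepithelial genes summed to 40456, 23467, 36884 and 46413. Of the 19, 11 were at least 2-fold lower with RU486 in WT, where 8.88% of all genes were. Beside the genotype result under placebo, the 14 white adipocyte genes were all highest on the PAX8PPARg placebo array, where 16.1% of all genes were. These 14 summed to 39940 there, against 14042 on the WT placebo array. Under RU486 the same genes summed to 6609 in WT and 5510 in PAX8PPARg. Of the 9 measured brown adipocyte genes, some of which fibres also use, 7 were highest on the PAX8PPARg placebo array, where 16.1% of all genes were. Under placebo 3 were at least 2-fold higher in PAX8PPARg, where 4.34% of all genes were, and 8 of the 9 lay above 0. The exception was Fabp3, with signals of 1735, 79.4, 82.6 and 58.4, and without it the other 8 genes summed to 1459, 840.7, 2466.5 and 736. Beside Tnnt2, the 15 squamous and hair follicle genes summed to 9789.5, 464, 1376 and 14820. In each of the 4 comparisons 14 of the 15 differed by at least 2-fold, all with the sign of Tnnt2. Over all genes 8.88% were that much lower for RU486 in WT and 10.6% higher for RU486 in PAX8PPARg. Between genotypes 5.49% were lower under placebo and 10.9% higher under RU486. The medians of the 15 genes were -3.65 for RU486 in WT, 3.72 for RU486 in PAX8PPARg, -2.51 between genotypes under placebo and 3.70 under RU486. The 11 endothelial genes also moved with the genotype result under placebo. They summed to 3083, 2216, 5448 and 2347, and 10 of the 11 were highest on the PAX8PPARg placebo array, where 16.1% of all genes were. The median genotype difference of the 11 was 0.63 under placebo and -0.02 under RU486. The 12 fibroblast genes summed to 41039 to 66032. The 20 measured non-muscle paralogues of contractile genes had medians between -0.33 and 0.31 in the 4 comparisons. At most 2 were at least 2-fold higher and 1 lower in any, where 4.34% to 10.9% of all genes were higher and 5.49% to 10.2% lower.

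**Figure D4:**
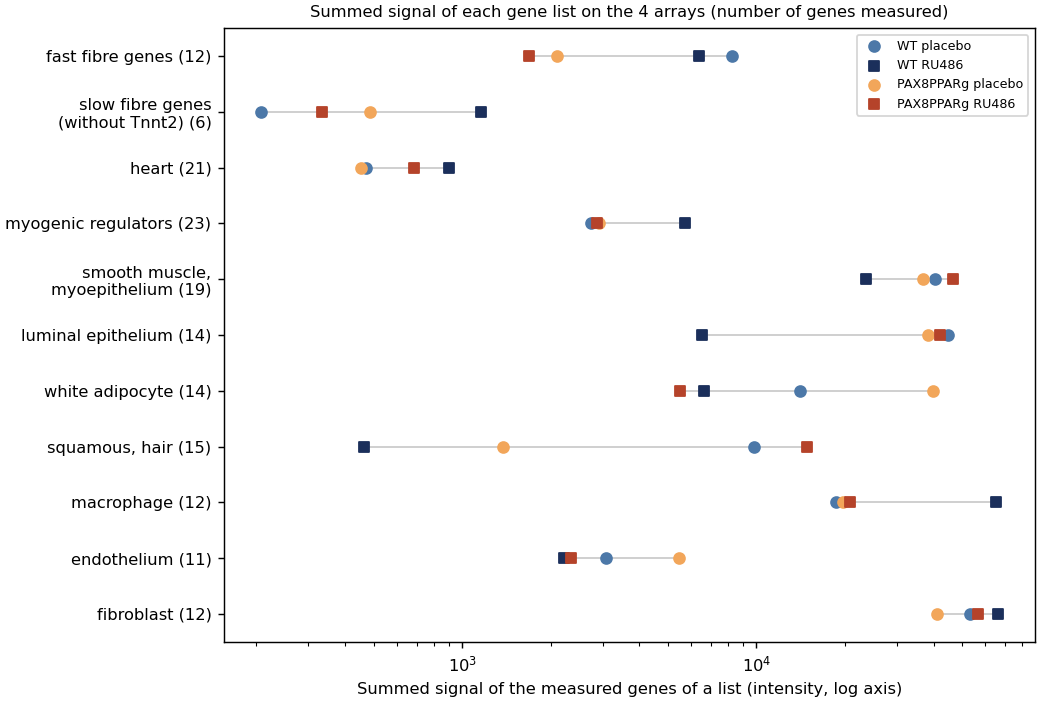
Summed probe set signal of each gene list (horizontal log axis, intensity) on the 4 arrays, with the number of genes measured in brackets and no error because each group had 1 array. The fast-fibre genes separate by genotype (8271 and 6399 in WT, 2096 and 1692 in PAX8PPARg), whereas the slow-fibre genes are highest on the WT RU486 array at 1158, where the luminal epithelial sum is lowest at 6522.

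An additive model of genotype and treatment over the 4 arrays was the only test available, and it left 1 residual degree of freedom. No gene passed limma with Benjamini-Hochberg adjustment at 0.05 for either factor (0.0% of 12393 genes for genotype and 0.0% for RU486). The smallest adjusted p among the 38 genes in limma was 0.982 for genotype and 0.889 for RU486. At an unadjusted limma p under 0.05, 15 of the 38 genes differed by genotype, all lower in PAX8PPARg, where 3.69% of all genes did, and 3 differed by RU486, where 4.91% did. The 15 were Tnnc2, Myl1, Eno3, Acta1, Myh4, Atp2a1, Tnnt3, Tnni2, Myh3, Myh1, Mylpf, Ckm, Myot, Actn3 and Actn2, and the 3, all higher with RU486, were Eno3, Myl3 and Tnni1. The fitted genotype effect was -2.17 for Tnnc2 with a standard error of 0.31, and -2.16 for Myl1 with a standard error of 0.31, both with an adjusted p of 0.982 in limma. The standard errors combine how far the 2 genotype comparisons differ with a variance that limma estimates over all genes. For these 2 genes the comparisons differed little (-2.23 and -2.11 for Tnnc2, -2.09 and -2.22 for Myl1), so the shared variance weighs most. Neither part measures the spread between mice.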

How the data were processed

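The values are probe set signals (intensity, linear scale) as the authors deposited them from 4 Affymetrix arrays of biotin-labelled cRNA, per the labels. The sources used here do not name the software that made the signals. The mean after trimming 2% at each end was 500.1 to 500.2 on each array, so the signals share a scale. No detection calls or raw files were used, and precision is limited by the number of arrays.

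Of 22690 probe sets, 64 were controls, 20380 had 1 gene symbol, 691 had several and 1555 had none in the platform annotation. Symbols were updated through gene IDs against RefSeq, where 20351 of 20380 were found. Signals were transformed as log2(signal + 16), the median of the non-control probe sets was subtracted on each array, and each gene took its brightest probe set. Before centring the median signal was 163 to 188 on the arrays. Without centring the median over all genes was 0.04 instead of -0.15 for the genotype difference under placebo, and 0.00 instead of 0.13 for RU486 in PAX8PPARg. Directions given for the gene groups are relative to the centred median.

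Differences between 2 arrays were described by size, without a test. The additive fit was limma 3.58.1 in R 4.3.3 over 12393 genes, checked on simulated data. The members and the gene lists were chosen with earlier results of these data known. Every member is named, and other genes were named by size of difference within their list and, for Tnnt2, by distance, except that Myod1, Nppa and Myh6 were chosen as defining markers and Mef2c, Trdn, Ak1 and Pgam2 among the genes that rule gave. Alternatives were other pseudocounts, no centring, quantile normalization, the mean of a gene's probe sets, and filters on dim genes.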

Additional observations from a re-analysis of the deposited data

Results flagged for a closer look

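A total of 3 genes were at least 2-fold apart between RU486 and placebo in opposite directions in the 2 genotypes. With 1 array per group these differences were not tested, and the share of all genes with such opposite differences was not counted. For Tnnt2 the RU486 difference was -1.10 in WT and 5.29 in PAX8PPARg, so that the latter exceeded the former by 6.40 on the log2 scale. For Myh7 the RU486 difference was 3.44 in WT and -2.65 in PAX8PPARg, and the latter less the former was -6.09. For Myl2 the RU486 difference was 3.01 in WT and -1.01 in PAX8PPARg, and the latter less the former was -4.02. The 3 genes are all classed as slow or cardiac, and Tnnt2 ran opposite to the other two.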

How the results depend on the processing

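Of 148 values recomputed under alternatives, 121 stayed within their tolerance, 27 moved, and no 2-fold difference of a member changed sign. Keeping only genes at or above the median level left 12 of the 38 members and none of the 6 slow-fibre genes, so that count has no value there. The median difference was then -1.96 under RU486 and -2.23 under placebo between genotypes and, against 0.12 over all members, -0.19 for RU486 in WT. The members higher numbered 0 between genotypes under placebo, 3 for RU486 in PAX8PPARg and 1 for RU486 in WT. Those lower numbered 10 between genotypes under RU486, 10 under placebo, and 1 for RU486 in either genotype. Over the genes kept, the shares higher were 1.89%, 5.12% and 5.50% in that order. The shares lower were 10.3%, 4.42% and, for RU486, 8.26% in WT and 5.15% in PAX8PPARg. With a pseudocount of 1 the genotype medians were -1.75 under RU486 and -0.98 under placebo. Then 2 members were higher in PAX8PPARg under RU486, where 17.2% of all genes were. With RU486 in PAX8PPARg 6 were lower, where 10.4% of all genes were. With a pseudocount of 64 the genotype medians were -0.93 under RU486 and -0.45 under placebo. Then 1 member was higher in PAX8PPARg under placebo, and with RU486 2 were higher in PAX8PPARg and 4 in WT. The shares over all genes were 2.35%, 4.07% and 3.95% in that order. With RU486 in WT 2 of 6 slow-fibre genes stayed higher. Without centring 5 members were lower with RU486 in PAX8PPARg, as with quantile normalization, where 8.71% and 8.25% of all genes were. Without centring 2 members were highest on the PAX8PPARg placebo array. Tnnt2 moved most with the pseudocount, from -5.41 (1 added) to -4.19 (64 added) between genotypes under placebo and from 5.69 to 4.47 for RU486 in PAX8PPARg. The fast-fibre counts, chosen after seeing the data as were the slow-fibre ones, lay between 7 and 10. No paired analysis was possible because each group had 1 array and the labels give no replicate numbers. Dim genes, whose order rests on signals near the bacterial controls, limit the slow-fibre and developmental results most.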
